A study of Danio rerio with 17 samples.

Results

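The livers of overfed HBx,src zebrafish (diet-induced obesity, DIO) were compared with those of HBx,src fish on a normal diet (NOR). The arrays were chosen by their titles, which place them in batch 1, and they were 6 of the 17 arrays of the series, 3 DIO and 3 NOR. The study profiled livers of adult transgenic fish on genome-wide zebrafish arrays, in the HBx,src line and in the HBx,src,p53-/+ line, under both diets and under DIO with Oligo-Fucoidan (DIO+OF, a seaweed polysaccharide given by gavage at 300 mg/kg). All fish of both groups were females that carried 2 liver transgenes, in which the hepatocyte promoter of fabp10a drives hepatitis B virus X antigen (HBx) fused to mCherry and the src oncogene, with EGFP under the heart promoter myl7 as the marker. NOR fish received 6.9 mg and DIO fish 83 mg of Artemia cysts per fish per day, starting at 3 months of age, and both groups are labelled as mock for the treatment. The age is labelled 6 months, whereas 2 months of diet from the age of 3 months would end earlier, and the sources used here do not settle which holds. They also do not give the time of day of sampling, or whether an array held the RNA of 1 fish or of several, so the p-values measure the spread between these arrays.

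Overfeeding changes what the liver must store, make and degrade. The Myc proteins are transcription factors that promote the making of ribosomes and the growth of cells, and the Pim kinases, which are made in response to cytokines in mammals, act beside them. The proteasome degrades proteins tagged with ubiquitin, and the endoplasmic reticulum (ER) folds the plasma proteins and lipoprotein components that hepatocytes secrete. The circadian clock is a loop of transcription factors in which Bmal and Clock activate the genes of their own inhibitors, and feeding is one of the cues that set it in the liver.

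The 6 arrays had similar medians, and hepatocyte markers were at a high level in all of them. Each array had a median of 2.1 to 2.21 in log2 units, and the interquartile range was 1.80 to 1.92 in the DIO arrays and 1.93 to 2.03 in the NOR arrays. The summed linear signal of 17 hepatocyte marker genes was 64260 to 65700 in NOR and 67540 to 71210 in DIO. The yolk precursor gene vtg2, which the female liver makes under estrogen, was at 13.84 in each NOR array and at 13.96 to 14.04 in the DIO arrays, and since the 3 NOR values were the same, whether they are a ceiling of the summarisation is not known. The rank correlation of an array with the others of its group was 0.843 to 0.847 in NOR and 0.805 to 0.808 in DIO. With the other groups of the line, DIO+OF included, it was 0.817 to 0.826 in NOR and 0.799 to 0.826 in DIO. DIO replicate 3 was closer to the other groups (0.826) than to its own (0.8075), so the DIO arrays were not set apart as a group.

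No named gene passed a correction over the array. In the limma fit, 1 of 75212 probe sets (0.00133%) had an adjusted p under 0.05, and none of the 20908 genes did (0 genes). Before adjustment 4310 probe sets, or 5.73%, had a p under 0.05, where uniform p-values would give 5%. The probe set that passed has no gene symbol in the annotation used here (its identifier is 12970583). Its log2 values were 3.33, 3.39 and 3.48 in NOR and 0.82, 0.63 and 1.05 in DIO, a difference of -2.57 ± 0.17 (SE, adjusted p = 0.0143 by limma). The call was lost when any 1 of the 6 arrays, or DIO+OF replicate 3, was left out. A second unnamed probe set, 12968666, was at 2.63, 2.02 and 2.08 in NOR and at 6.23, 5.77 and 5.21 in DIO, which is 11.3-fold higher but missed the threshold (adjusted p = 0.0661 by limma).

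The genes are described further at the threshold stated in the methods of the study (called here the methods' threshold), which asks for a 2-fold change or more together with a p under 0.05 before adjustment. It was passed by 1480 probe sets, 546 higher and 934 lower in DIO. Of the genes, 89 were higher (0.426%) and 342 were lower (1.64%). The values of the 3 DIO arrays lay wholly above those of the 3 NOR arrays in 1239 genes (5.93%) and wholly below them in 1613 (7.71%). Since no gene passed the correction, higher and lower give here the direction of means. An exact two-sided permutation test of 3 against 3 arrays, which cannot go below p = 0.1, was not run. For the 20 genes with the largest differences among those at the methods' threshold, of high level and without overlap, 10 in each direction, the adjusted p by limma lay between 0.417 and 0.867. Lack of overlap was a condition for naming these 20 genes, so it is no further evidence for them.

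Among the 10 genes with the largest lower values in DIO were 2 Pim kinase and 2 Myc genes. The kinase gene pim1 had log2 values of 7.77, 8.60 and 7.73 in the NOR arrays and of 4.87, 4.52 and 4.80 in the DIO arrays, a difference of -3.31 ± 0.97 (SE), or 9.90-fold. All NOR arrays lay far above all DIO arrays, and the error comes from a fit that also holds the DIO+OF arrays. In the fit of the 6 NOR and DIO arrays alone the adjusted p of pim1 was 0.234, against 0.783. Its paralog pim2 differed by -2.85 ± 1.2, with 7.98, 7.74 and 8.33 in NOR and 6.44, 3.25 and 5.80 in DIO, of which replicate 2 was far below the others (-1.89 without it). In whole liver, fewer cells of a type and less RNA per cell cannot be told apart.

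The Myc genes mycb and mych were lower in every DIO array. The values of mycb were 7.92, 8.88 and 7.95 in NOR and 5.12, 5.04 and 7.15 in DIO (-2.48 ± 0.63), and DIO replicate 3 was nearest to the NOR arrays. Those of mych were 7.65, 8.38 and 7.73 in NOR and 5.89, 5.25 and 6.44 in DIO (-2.06 ± 0.46). The Max-binding repressor gene mnta, whose protein competes with Myc for its partner, was at 3.42, 4.07 and 3.46 in NOR and at 4.28, 4.30 and 4.65 in DIO (0.76 ± 0.23). In the list of 17 measured myc, mad and pim genes, 4 were lower at the methods' threshold (23.5%, against 1.64% of all genes) and 0 higher. These were pim1, pim2, mycb and mych, already named by size. The list was chosen with earlier results of these data known, so this share is no further evidence. Members of the list ran from -3.31 to 0.76, and the median of -0.10 was near that of all genes (-0.01). Both myca and mycn overlapped between the diets and differed by -0.20 ± 0.19 and 0.28 ± 0.26.

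**Figure D1:**
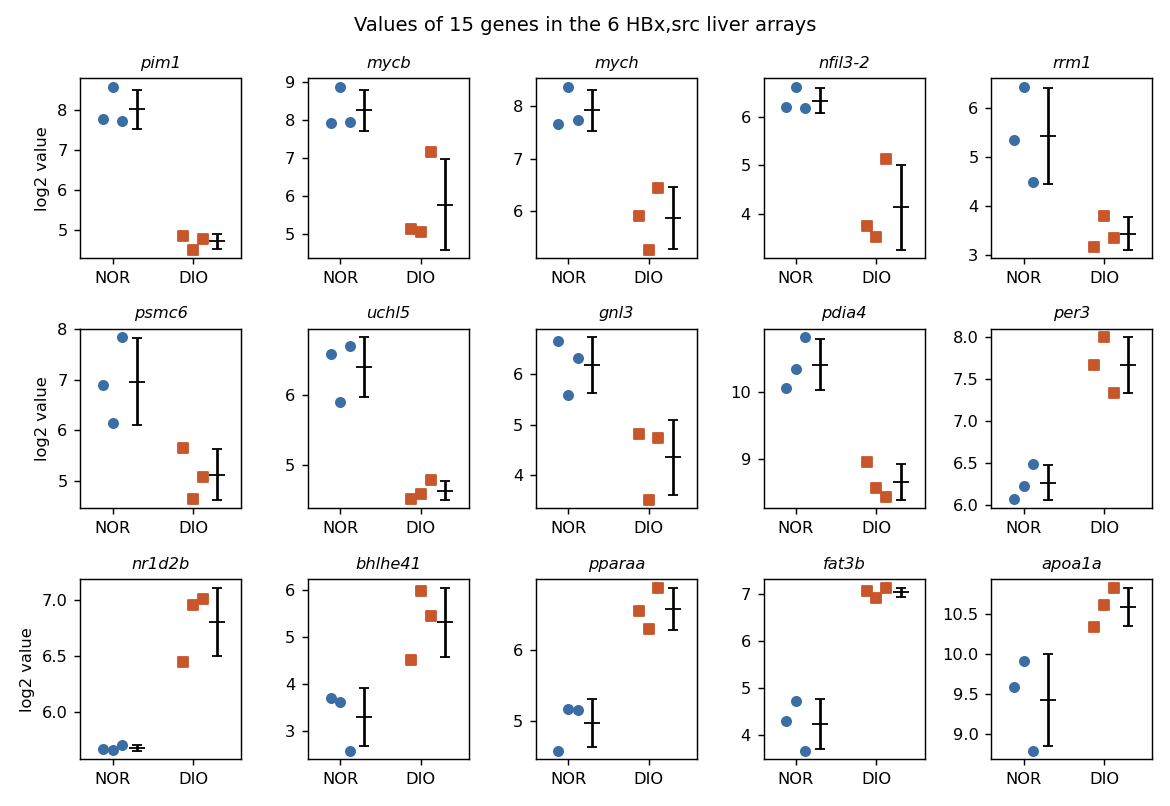
Log2 values of 15 genes in the 3 NOR (blue circles) and 3 DIO (orange squares) arrays of HBx,src livers, with the mean and SD of each group in black; each panel has its own axis, which does not start at 0. The values of the groups do not overlap in any panel, and pim1 is at 7.73 to 8.60 in NOR and at 4.52 to 4.87 in DIO. Lack of overlap was a condition for naming several of these genes, and named genes with overlap were not drawn, so it is no further evidence.

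The other genes with the largest lower values had varied roles. The poly(A) polymerase gene tent5c, whose mammalian protein stabilises mRNAs of secreted proteins, differed by -2.39 ± 0.77 (its other probe sets reached up to -1.16), and the amino acid transporter gene slc43a1a by -2.12 ± 0.67. The clock repressor gene nfil3-2, a relative of mammalian Nfil3, differed by -2.21 ± 0.57. The lipid transfer gene gltpd2b was at 6.32, 6.73 and 8.53 in NOR and at 4.68, 5.4 and 5.18 in DIO (-2.11 ± 0.74). The receptor family gene nlrc11 differed by -2.30 ± 0.68, but NOR replicate 1 was at 2.61, close to the highest DIO value of 2.39, and the other NOR arrays were at 5.34 and 5.59.

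Among genes of nucleotide and DNA synthesis, those that passed the methods' threshold were all lower in DIO. Over all genes too, more were lower (342) than higher (89). The gene rrm1, the large subunit of ribonucleotide reductase, was at 5.35, 6.45 and 4.49 in NOR and at 3.15, 3.80 and 3.35 in DIO (-2.0 ± 0.53), although its second probe set differed by only -0.04. The sliding clamp gene pcna was at 5.42, 6.59 and 4.34 in NOR and at 3.47, 4.15 and 3.24 in DIO (-1.83 ± 0.55). The groups did not overlap in either gene, and NOR replicate 2 was the highest in both. Oocyte markers were highest in that array too, with a summed linear signal of 199.7 against 97.99 and 85.93 in the other NOR arrays and 91.76 to 102.8 in DIO, and their part in these values was not tested. The replication gene mcm4 differed by -1.67 ± 0.40 and the thymidine kinase gene tk1 by -1.45 ± 0.33. Of 48 measured DNA replication genes, 6 were lower at the methods' threshold (12.5%, against 1.64% of all genes) and 0 higher. Without overlap 18 were lower (37.5%, against 7.71% of all genes), and the median was -0.41 (-0.21 without NOR replicate 2). Many genes of this list were of low level. Its median level was 2.55 to 3.18 in the NOR arrays and 2.16 to 2.51 in the DIO arrays, where that of all genes was 2.83 to 2.96. Among 35 genes of nucleotide synthesis 5 were lower (14.3%) and 0 higher (median -0.24, and -0.15 without NOR replicate 3). The gene cad, which starts pyrimidine synthesis, was at -1.63 ± 0.65 and adsl, of purine synthesis, at -1.25 ± 0.38. The serine hydroxymethyltransferase gene shmt1 was instead higher in every DIO array (0.71 ± 0.24). Of 58 mitosis and cyclin genes 2 were lower (3.45%, against 1.64% of all genes) and 0 higher, smc4, a condensin subunit, and cdk2. The median of that list was -0.11, and its median level, 1.96 to 2.36 in the 6 arrays, was below that of all genes.

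Most genes of the machinery that makes ribosomes had lower values in DIO. Of 101 measured ribosome biogenesis genes, 97 had a difference below 0. At the methods' threshold 20 were lower (19.8% against 1.64% of all genes) and 0 higher, and 36 were lower without overlap (35.6% against 7.71%). The median was -0.66, against -0.01 for all genes and -0.11 for the 8662 genes above the 75th percentile of level, of which 3.46% were lower at the threshold. The nucleolar GTPase gene gnl3 was at 6.66, 5.58 and 6.33 in NOR and at 4.81, 3.49 and 4.74 in DIO (-1.85 ± 0.54). The gene polr1e, of RNA polymerase I, was at 5.37, 4.70 and 4.21 in NOR and at 2.37, 2.78 and 3.84 in DIO (-1.76 ± 0.57). Neither gene overlapped between the diets. The processome genes pwp2h and wdr46 differed by -1.68 ± 0.50 and -1.35 ± 0.27, though the second probe set of wdr46 differed by only -0.16, and nip7, of the large subunit, differed by -1.43 ± 0.41. Of 71 genes taken by the symbols of cytosolic ribosomal proteins, 1 was lower at the threshold (1.41%, against 1.64% of all genes) and 0 higher. The median of this list was -0.20 (-0.11 without NOR replicate 1). Its lower gene was rpl7l1, named as like rpl7 and taken in by its symbol. The values of rpl7l1 were 7.01, 6.51 and 6.03 in NOR and 5.04, 5.35 and 5.51 in DIO.

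Genes of the mitochondrial ribosome and of tRNA charging also lay mostly below 0. Of 67 mitochondrial ribosomal protein genes, 10 were lower (14.9%, against 1.64% of all genes) and 0 higher at the methods' threshold. In that list 63 were below 0, and the median was -0.45. The gene mrpl38 was at 5.86, 5.93 and 5.79 in NOR and at 4.64, 4.92 and 4.78 in DIO (-1.08 ± 0.25). The NOR arrays of mrpl38 lay close to each other and above all DIO arrays. Of 24 measured aminoacyl-tRNA synthetase genes, of 47 symbols looked for, 4 were lower (16.7%) and 0 higher, and 23 were below 0. The valyl enzyme gene vars1 was at 6.35, 6.29 and 8.05 in NOR and at 5.56, 4.59 and 5.04 in DIO (-1.83 ± 0.63). NOR replicate 3 was high and DIO replicate 2 low in this list, whose median of -0.70 was -0.34 without the former and -0.43 without the latter. Measured from the NOR means, its array medians overlapped, with NOR replicate 2 at -0.59 and DIO replicate 1 at -0.44. Of 79 translation factor genes 5 were lower (6.33%) and 0 higher, with the cap-binding gene eif4ea at -1.40 ± 0.41 and eif4bb at -1.05 ± 0.26.

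The proteasome list had the lowest median of all 53 lists examined, a rank lost without NOR replicate 3 (-0.58, against -0.71 for ribosome biogenesis). All 40 measured subunit genes had a difference below 0, from -1.83 to -0.05. At the methods' threshold 14 were lower (35%, against 1.64% of all genes and 3.46% of those of high level) and 0 higher. In 28 the 3 DIO arrays lay below the 3 NOR arrays (70%, against 7.71% of all genes and 11.7% of those of high level). The median was -0.88. The ATPase gene psmc6, of the regulatory particle, was at 6.90, 6.14 and 7.84 in NOR and at 5.66, 4.65 and 5.07 in DIO (-1.83 ± 0.49). The deubiquitinase genes uchl5 and usp14, whose proteins trim ubiquitin at the proteasome, differed by -1.78 ± 0.35 and -1.51 ± 0.35. The values of uchl5 were 6.60, 5.90 and 6.70 in NOR and 4.51, 4.58 and 4.78 in DIO, without overlap. The ubiquitin receptor gene psmd4a differed by -1.37 ± 0.34, the lid gene psmd7 by -1.48 ± 0.45, and psma5 and psmb1 of the core particle by -1.48 ± 0.46 and -1.06 ± 0.33.

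The DIO arrays lay close together over the list, while the NOR arrays were spread. Measured from the NOR mean of each gene, the median over the 40 genes was -0.14, -0.38 and 0.61 in NOR replicates 1, 2 and 3 and -0.82, -1.06 and -0.96 in the DIO arrays. NOR replicate 3 was thus the highest, and without it the median difference was -0.58. The groups did not overlap in this median. Of 21 further genes of proteasome assembly, activators and the immunoproteasome, 4 were lower (19%, against 1.64% of all genes) and 0 higher. They were led by psme1 and psme2, the subunits of the PA28 activator. The values of psme1 were 8.11, 8.73 and 9.13 in NOR and 7.03, 6.58 and 7.40 in DIO (-1.65 ± 0.32), and psme2 differed by -1.30 ± 0.33.

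**Figure D2:**
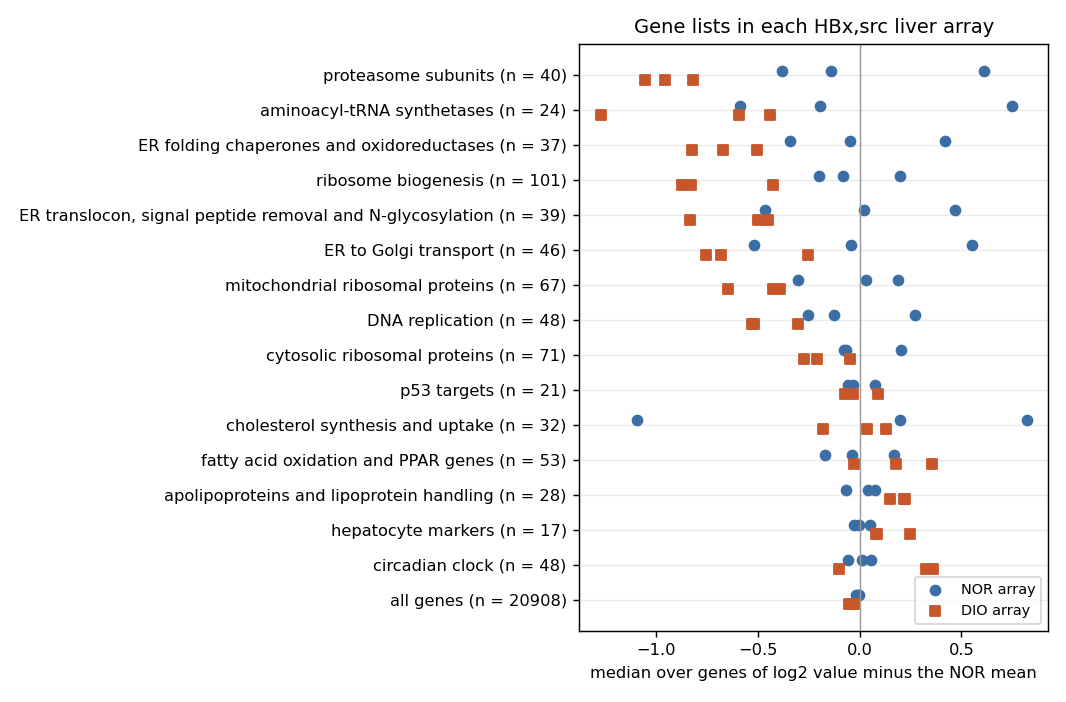
For each gene list and each HBx,src array, the median over the genes of the log2 value minus the mean of the 3 NOR arrays; NOR arrays are blue circles, DIO arrays orange squares, and n is the number of measured genes. The 3 DIO arrays of the proteasome list sit between -1.06 and -0.82, below its NOR arrays, whereas those of all genes lie close to 0.

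The lists of the secretory pathway, from the ER to the Golgi, lay mostly below 0. Of 37 ER folding genes, 6 were lower (16.2%, against 1.64% of all genes) and 0 higher at the methods' threshold. Without overlap 17 were lower (45.9%, against 7.71% of all genes), and the median was -0.72. The protein disulfide isomerase gene pdia4 was at 10.06, 10.33 and 10.81 in NOR and at 8.95, 8.57 and 8.44 in DIO (-1.75 ± 0.49). The gene manf, of a secreted ER stress protein, was at 9.49, 8.82 and 9.94 in NOR and at 8.26, 6.96 and 8.2 in DIO (-1.61 ± 0.59). All DIO arrays were below all NOR arrays in both. The co-chaperone gene dnajb11 differed by -1.09 ± 0.31, and the lectin chaperone genes calr3b and canx by -1.56 ± 0.64 and -0.84 ± 0.31.

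Of 39 genes of the translocon, signal peptide removal and N-glycosylation, 6 were lower (15.4%, against 1.64% of all genes) and 0 higher. Below 0 were 37 of them, with sec61a1b, of the channel itself, at -1.43 ± 0.52 and srp19, of the signal recognition particle, at -1.11 ± 0.33. Of 46 genes of ER to Golgi transport 7 were lower (15.2%) and 0 higher. The coat genes sec24c and cope differed by -1.46 ± 0.28 and -1.95 ± 0.52, and the other probe sets of sec24c reached up to -0.09. The values of cope were 7.48, 6.99 and 8.68 in NOR and 6.39, 5.36 and 5.56 in DIO, without overlap. The medians of these 2 lists were -0.63 and -0.61, and -0.42 and -0.31 without NOR replicate 3. Measured from the NOR means, the array medians of both lists overlapped between the diets. NOR replicate 2 was at -0.465 in the translocon list, below DIO replicate 3 at -0.45. In the transport list it was at -0.52, below DIO replicate 1 at -0.25. Of the 25 genes of ER-associated degradation 2 were lower (8%) and 0 higher. These were edem1 (-1.26 ± 0.40) and derl1 (-1.17 ± 0.35), which act in the choice and export of misfolded proteins. The median was -0.39, and it was -0.70 without NOR replicate 2 and -0.11 without NOR replicate 3. The array medians of this list overlapped too, with NOR replicate 2 at -0.43 and DIO replicate 1 at -0.23.

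The factors that switch on the unfolded protein response were not shifted together. Of 17 sensors and factors 1 was lower (5.88%, against 1.64% of all genes) and 0 higher, and the median was -0.20. The lower gene was xbp1, at 8.29, 8.49 and 9.58 in NOR and at 7.92, 7.64 and 7.35 in DIO (-1.15 ± 0.48, and -0.75 without NOR replicate 3). The liver factor gene creb3l3a was at 6.96, 7.95 and 7.79 in NOR and at 8.27, 8.28 and 8.61 in DIO (0.82 ± 0.30, and 0.51 without NOR replicate 1). Without overlap 13 of 45 cytosolic and mitochondrial chaperone genes were lower (28.9%, against 7.71% of all genes). At the threshold 1 was lower (2.22%, against 1.64% of all genes) and 0 higher. The 1 gene was fkbp5, a co-chaperone induced by glucocorticoids in mammals, at 9.30, 7.05 and 9.03 in NOR and at 4.10, 3.97 and 8.77 in DIO, with overlap through DIO replicate 3 (-2.85 ± 1.21, and -4.42 without that array). Subunit genes of the CCT chaperonin, which folds actin and tubulin, were among the 13, with cct6a at -0.71 ± 0.15 and cct8 at -0.66 ± 0.15, whose other probe sets reached up to 0.02. The median of the list was -0.43, and -0.27 without NOR replicate 3.

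**Figure D3:**
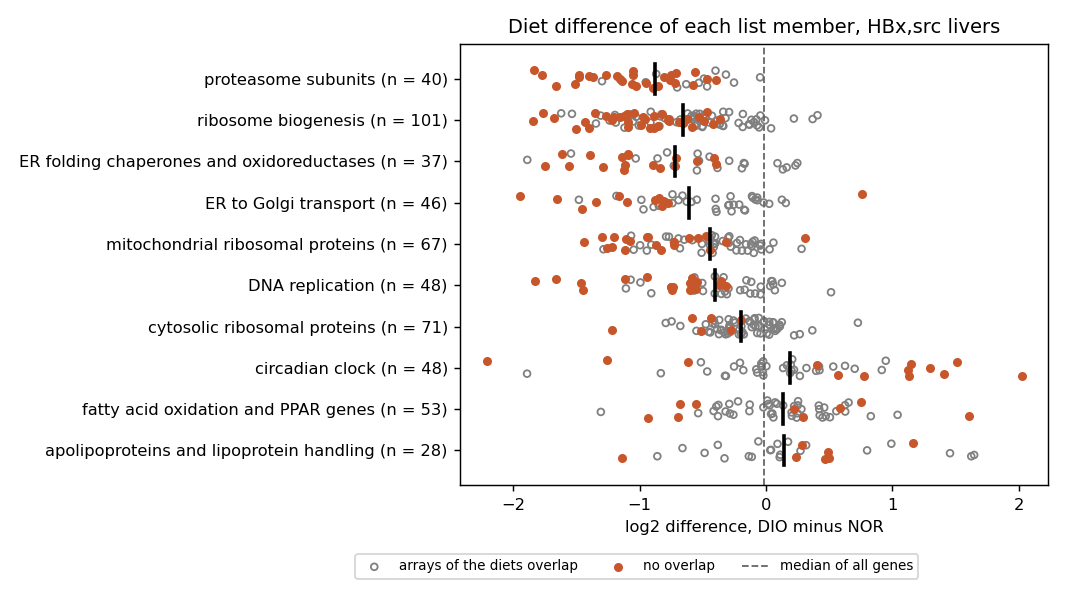
Log2 difference of DIO minus NOR for every measured member of 10 gene lists in HBx,src livers; filled points are genes whose 3 DIO and 3 NOR arrays do not overlap, black bars are list medians, and the dashed line is the median of all genes (-0.01). All 40 proteasome subunit genes lie below 0, and the circadian clock genes run from -2.21 to 2.02.

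The circadian clock list had members at the methods' threshold on both sides. Of 48 measured genes, 6 were higher (12.5% against 0.426% of all genes) and 3 lower (6.25% against 1.64%) at the methods' threshold. Without overlap 10 were higher (20.8% against 5.93% of all genes) and 3 lower (6.25% against 7.71%). Among the higher genes were inhibitors of the loop and targets of Bmal and Clock. The Rev-erb gene nr1d2b was at 5.67, 5.65 and 5.70 in NOR and at 6.45, 6.96 and 7.01 in DIO (1.13 ± 0.18). The period gene per3 was at 6.07, 6.22 and 6.49 in NOR and at 7.67, 8.0 and 7.33 in DIO (1.41 ± 0.28). The Dec genes bhlhe41 and bhlhe40 differed by 2.02 ± 0.42 and 1.12 ± 0.36, the values of bhlhe41 being 3.70, 3.61 and 2.57 in NOR and 4.51, 5.99 and 5.45 in DIO. The inhibitor gene ciartb differed by 1.51 ± 0.36 and dbpa, an output activator, by 1.15 ± 0.35.

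The repressor nfil3-2, which acts against Dbp on shared sites in mammals, was at 6.19, 6.62 and 6.19 in NOR and at 3.74, 3.51 and 5.13 in DIO. Its relative nfil3-5 differed by -1.26 ± 0.52, with 6.13, 6.95 and 6.56 in NOR and 5.23, 4.64 and 5.99 in DIO. The Rev-erb relative nr1d4a differed by -1.89 ± 0.72, but it ran from 3.61 to 6.81 within NOR, the groups overlapped, and it was -1.09 without NOR replicate 3. The median of the list was 0.19 (0.36, 0.13 and 0.06 without DIO replicates 1, 2 and 3). The time of sampling is not known for any array, so its part in these values was not tested.

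Genes of lipid metabolism lay on both sides of 0. The nuclear receptor gene pparaa, whose mammalian counterpart switches on fatty acid oxidation in fasting, was at 4.59, 5.17 and 5.16 in NOR and at 6.56, 6.29 and 6.88 in DIO (1.6 ± 0.46). Of 53 measured fatty acid oxidation and PPAR genes it was the 1 that passed the methods' threshold as higher (1.89%, against 0.426% of all genes). In that list 0 were lower, and the median was 0.14. The dehydrogenase gene hadh was higher without overlap (0.75 ± 0.29, with its second probe set at -0.05), whereas cpt1aa, of the mitochondrial import step, and acsl5, which activates fatty acids, were lower without overlap (-0.68 ± 0.27 and -0.93 ± 0.27). NOR replicate 3 of cpt1aa was at 7.70 against 6.66 and 6.69 in the other NOR arrays, and without it the difference of cpt1aa was -0.34. The kinase gene pank1a, of coenzyme A synthesis, was at 6.11, 5.18 and 4.33 in NOR and at 7.47, 6.54 and 6.59 in DIO (1.66 ± 0.63, with other probe sets down to 0.62).

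Of 28 genes of apolipoproteins and lipoprotein handling, 2 were higher (7.14%, against 0.426% of all genes) and 1 lower (3.57%, against 1.64%), with a median of 0.14. The gene apoa1a, of the main HDL protein, was at 9.59, 9.91 and 8.79 in NOR and at 10.34, 10.61 and 10.82 in DIO (1.16 ± 0.35). The gene apoeb differed by 1.62 ± 0.52, but NOR replicate 2 was at 9.62, above DIO replicate 1 at 9.45. The lower gene was lrpap1, an ER chaperone of lipoprotein receptors (-1.14 ± 0.27). In triglyceride synthesis gpam, which catalyses the first step, was at 6.31, 5.49 and 6.44 in NOR and at 5.22, 3.67 and 3.94 in DIO (-1.80 ± 0.42), while dgat2, of the last step, was at 0.91 ± 0.46 and higher in every DIO array.

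In the lipogenic and cholesterol lists the arrays of 1 diet were far apart. The fatty acid synthase gene fasn was at 7.12, 5.86 and 5.10 in NOR and at 10.15, 6.13 and 7.88 in DIO (2.03 ± 1.25, and 0.98 without DIO replicate 1), with overlap. The acetyl-CoA synthetase gene acss2l was the 1 of 30 fatty acid synthesis genes higher at the threshold (3.33%, against 0.426% of all genes). It differed by 2.46 ± 0.96, with NOR replicate 1 at 7.95, above 2 of the 3 DIO arrays, and by 3.73 without that array. Over the 32 genes of cholesterol synthesis and uptake the NOR arrays alone ran from -1.1 to 0.82 around their mean and the DIO arrays from -0.18 to 0.13, and the median difference was 0.08. It changed sign with the arrays left out, from -0.43 without NOR replicate 2 to 0.43 without NOR replicate 1. The list held insig1, a sterol sensor, at 1.29 ± 0.46 (0.78 without DIO replicate 1) and hmgcrb, of the rate-limiting enzyme, at -1.24 ± 0.49, both without overlap.

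The other genes with the largest higher values had varied roles. The cadherin gene fat3b was at 4.30, 4.72 and 3.66 in NOR and at 7.06, 6.91 and 7.11 in DIO (2.80 ± 0.46, 6.96-fold), and all of its 3 probe sets were between 2.80 and 3.79. The alpha-2-macroglobulin gene a2m2a, of a plasma protease inhibitor, was at 4.75, 4.93 and 5.66 in NOR and at 6.53, 6.89 and 6.78 in DIO (1.62 ± 0.24, with its second probe set at 0.46). Both were named under the rule that asked for no overlap between the diets. The ion channel gene piezo2b was at 6.23 in NOR replicate 1 and at 6.23 in DIO replicate 1, and its difference was 1.63 ± 0.71. The microtubule gene map7d1a differed by 1.58 ± 0.25 (its second probe set by 0.87), the exchange factor gene iqsec2a by 1.62 ± 0.35, the transporter gene oatx by 1.63 ± 0.40 and phka1b, of glycogen phosphorylase kinase, by 1.55 ± 0.30, with other probe sets of phka1b down to 0.16.

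Of 18 genes of bile acid synthesis and transport, 1 was higher (5.56%, against 0.426% of all genes) and 0 lower at the threshold. In this list 8 were below 0, the lowest was at -1.32, and the median was 0.03. Among those higher in every DIO array were abcc2 (multidrug resistance protein, which exports conjugates into bile) at 0.73 ± 0.16 and abcb4 (phospholipid export in mammals) at 1.16 ± 0.32. The values of abcc2 were 8.40, 8.48 and 8.45 in NOR and 9.03, 9.31 and 9.18 in DIO, without overlap. The cytochrome P450 genes had 2 higher (2.56%, against 0.426% of all genes) and 0 lower of 78. These were cyp2ad6 (1.3 ± 0.40, and 0.82 without NOR replicate 3) and cyp46a1.3 (1.21 ± 0.47). The gene cyp1a, induced through the aryl hydrocarbon receptor, was at 0.79 ± 0.21.

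Measured were 35 genes that the study names, or their near relatives, for lipid synthesis, fibrosis, proliferation, cell death and other roles. The median of the 35 was -0.16, and 3 were lower (8.57%, against 1.64% of all genes) and 0 higher at the methods' threshold. These were pcna, cdk2, which drives the entry into DNA synthesis, at -1.17 ± 0.33, and hsd11b2, which inactivates cortisol, at -2.19 ± 0.76 with overlap. The last is a relative of the type 1 enzyme that the study names and is not itself named there. The lipogenic factor gene srebf1 differed by 0.36 ± 0.24 and the collagen gene col1a1a by 0.30 ± 0.44. The probe set of src was at 5.04, 5.77 and 5.0 in NOR and at 4.98, 4.84 and 4.33 in DIO (-0.55 ± 0.41, and -0.30 without NOR replicate 2), and the sources used here do not say whether it reads the transgene. Of 21 p53 target genes 0 passed the threshold in either direction, and their median was -0.04.

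Marker lists of cell types had small medians, and some of these moved with single arrays. The medians of the 11 marker lists lay between -0.17 (oocytes) and 0.22 (fat cells), hepatocytes included, and 0 of their genes passed the methods' threshold. The hepatocyte median was 0.16, and 0.07 to 0.17 with 1 array left out. Of the 17 hepatocyte genes 4 were higher without overlap (23.5%, against 5.93% of all genes) and 0 lower. The median of oocytes was less steady. That of oocytes ran from -0.38 to 0.05 and that of exocrine pancreas, 0.18, from -0.09 to 0.59 with 1 array left out, and that of fat cells was 0.09 without DIO replicate 2. The 25 exocrine pancreas genes, tissue that can be dissected with the liver, varied between arrays of the same diet, with a summed linear signal of 1657 to 3875 in NOR and 1487 to 4788 in DIO. The 26 leukocyte genes summed to 694.2 to 1325 in NOR and 629.8 to 1105 in DIO. NOR replicate 2 was the highest NOR array in both. The part of these cells in the values above was not tested.

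In the HBx,src,p53-/+ line, which is also heterozygous for p53, the same diets were compared on 3 DIO and 2 NOR arrays of batch 2. These arrays share none with HBx,src, and line and batch cannot be told apart. Their interquartile range was 2.94 to 3.00 in DIO and 3.15 to 3.19 in NOR, against 1.80 to 2.03 in the HBx,src arrays. Whether the sizes of differences and the counts at a fixed fold are on the same scale in both lines was not tested. One array of that line, DIO+OF replicate 3, lacked vitellogenin signal and entered only the estimate of spread. At the methods' threshold 650 genes were higher (3.11%) and 1416 lower (6.77%) there, and 639 and 1457 without that array. Of the 342 genes lower in HBx,src, 313 also had a difference below 0 in the other line (91.5%, against 50.7% of all genes and 64% of the 8662 genes of high level), and 93 passed the threshold as lower there, which is 27.2% of the one list and 6.57% of the other. Of the 89 higher genes 46 had the same sign (51.7%, against 49.3% of all genes), and 8 passed, 8.99% of the one list and 1.23% of the other. Of these 89, 73 were among the 8662 genes of high level, of which 64% had the opposite sign, below 0, in that line. Across all genes Pearson's r of the differences was 0.229, as a description, since genes are not independent.

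Several lists of growth and secretion had medians below 0 in both lines, and others did not. In HBx,src,p53-/+ the median was -0.01 over all genes and -0.24 over the 8662 genes of high level. The list medians there were -0.71 for the proteasome, -0.71 for ER folding, -0.73 for the translocon list, -0.81 for ER to Golgi transport, -0.80 for mitochondrial ribosomal proteins and -1.06 for ribosome biogenesis. Of 101 ribosome biogenesis genes, 54 passed the threshold as lower, against 6.77% of all genes in that line. Medians nearer to that of the genes of high level were those of aminoacyl-tRNA synthetases (-0.32) and DNA replication (-0.25). List medians were above 0 there for cytosolic ribosomal proteins (0.12), mitosis and cyclins (0.21) and the myc, mad and pim genes (0.24), which were below 0 in HBx,src. The circadian clock median was 0.19 in HBx,src and -0.11 in HBx,src,p53-/+. There 2 of the 48 clock genes were higher and 8 lower at the methods' threshold, against 3.11% and 6.77% of all genes in that line. Among single genes gnl3 (-1.34 ± 0.44), psmc6 (-1.19 ± 0.40), tent5c (-3.50 ± 0.98), gpam (-1.72 ± 0.90) and, on the higher side, fat3b (3.43 ± 0.55) had the same sign in both. For other genes the values of the lines were further apart. In HBx,src,p53-/+ the difference of pim1 was 1.19 ± 0.73, that of mycb -0.37 ± 1.21, that of bhlhe41 -0.72 ± 0.43, that of ciartb -1.72 ± 0.61 and that of nfil3-2 -0.06 ± 0.39. The tests of these gaps between the lines did not pass the threshold, with an adjusted p of 0.232 for pim1, 0.127 for bhlhe41 and 0.322 for nfil3-2 by limma.

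**Figure D4:**
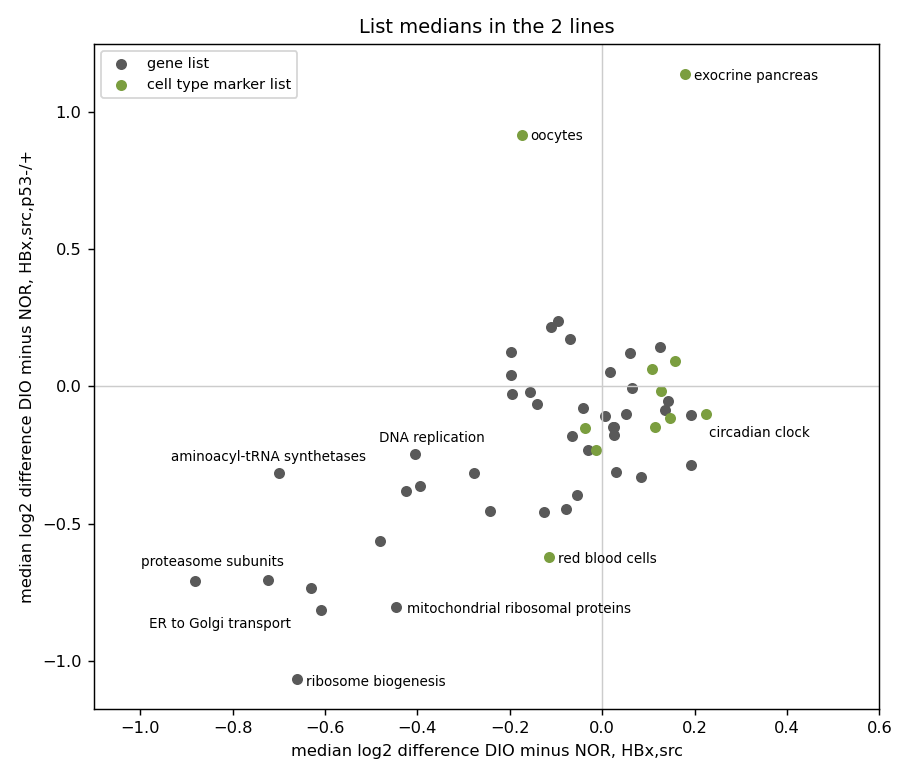
Median log2 difference of DIO minus NOR of each gene list (grey) and cell type marker list (green) in HBx,src (x axis, 3 against 3 arrays) and in HBx,src,p53-/+ (y axis, 3 against 2 arrays). Ribosome biogenesis is at -0.66 and -1.06, while the exocrine pancreas markers are at 0.18 in HBx,src and at 1.14 in the other line.

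A test of the difference between the diet effects of the lines called 81 of 75212 probe sets (0.108%), 61 with a higher and 20 with a lower difference in HBx,src. Quantile normalization of all arrays together left 2 and that within each batch 74, and without the array that lacked vitellogenin it was 151. Of 14 genes called, 10 were named by size and level. The kinase gene sgk1, which insulin and corticosteroids induce in mammals, was at 5.60, 5.65 and 5.46 in NOR and at 5.83, 6.47 and 6.72 in DIO of HBx,src (0.77 ± 0.44). In HBx,src,p53-/+ it differed by -3.24 ± 0.38, and the gap between the lines was 4.01 ± 0.62 (adjusted p = 0.029 by limma). In HBx,src itself their differences ran from -0.65 ± 0.28 for znf326, a splicing regulator, to 0.77 for sgk1, and in the other line from -3.24 for sgk1 to 4.27 for ypel3.

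**Figure D5:**
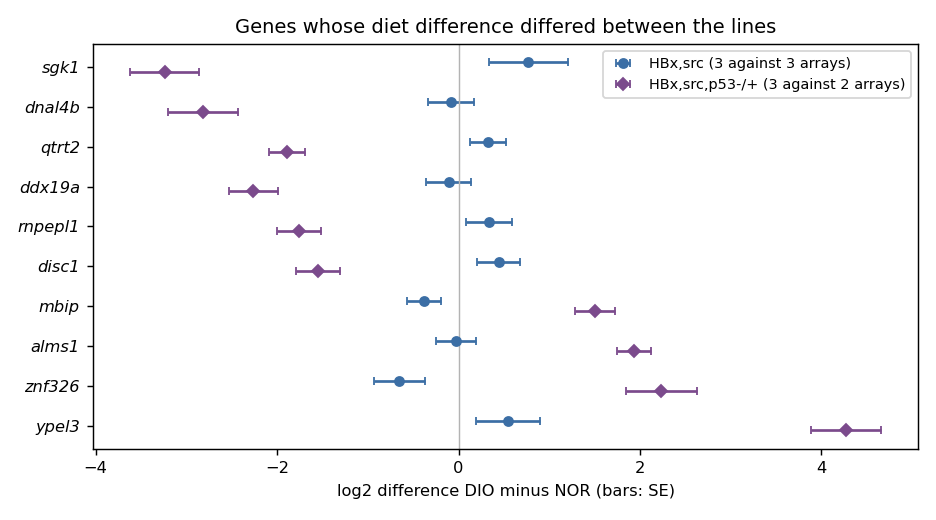
Log2 difference of DIO minus NOR with its SE in HBx,src (blue circles) and HBx,src,p53-/+ (purple diamonds) for the 10 genes named because this difference differed between the lines. The HBx,src values lie between -0.65 and 0.77, and those of the other line between -3.24 and 4.27.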

How the data were processed

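Liver RNA was hybridised to ZebGene ST arrays of 1 colour, and for each of them the authors deposited log2 signals by probe set. The submitters' processing notes name Transcriptome Analysis Console; how signals were summarised and normalized was not given in the sources used here. Annotation paired 30358 of 75212 probe sets with 1 symbol, giving 20908 genes; each gene was read from its brightest probe set, by the mean of the 9 batch 1 arrays. The fit was made in limma 3.58.1 (R 4.3.3) on these 9 arrays (NOR, DIO and DIO+OF, 1 mean each, empirical Bayes), with Benjamini-Hochberg adjustment over all probe sets, and was tested on simulated data. Errors beside log2 differences are its standard errors. HBx,src,p53-/+ was fitted on its 8 arrays and the difference between the lines on all 17. Genes were named by the largest differences at the methods' threshold (10 per direction, no overlap, mean above the 75th percentile), by the smallest p in each list (5), as genes the study names, or by the difference between the lines (6 per direction); clone and predicted names were passed over. Members and lists were chosen with earlier results of these data known, and myca, mycn and other members outside this rule after their values were seen. Figures were drawn with matplotlib 3.10.9. Alternatives were other sets of arrays, scalings, filters, priors, array weights, a replicate block and leaving out each array.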

Additional observations from a re-analysis of the deposited data

Results flagged for a closer look

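For 10 genes the log2 difference between overfeeding and the normal diet differed between HBx,src and HBx,src,p53-/+ by a test of that difference (adjusted p by limma under 0.05 over all probe sets). The difference, HBx,src minus the other line, was 4.01 ± 0.62 (SE) for sgk1, 2.74 for dnal4b, 2.22 for qtrt2, 2.16 for ddx19a, 2.09 for rnpepl1 and 2.00 for disc1. It was -3.73 ± 0.55 for ypel3, -2.89 for znf326, -1.96 for alms1 and -1.88 for mbip. None of these genes passed the adjusted threshold in HBx,src alone, where dnal4b was at -0.08, qtrt2 at 0.33, ddx19a at -0.11, rnpepl1 at 0.33, disc1 at 0.44, ypel3 at 0.54, alms1 at -0.03 and mbip at -0.38. HBx,src arrays were all of batch 1 and the others of batch 2, and these cannot be told apart. All 10 calls were lost under quantile normalization of all arrays together and with a replicate block.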

How the results depend on the processing

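The 9 gene list medians led with kept their sign under every alternative tried, proteasome subunits between -1.13 and -0.58 and ribosome biogenesis between -0.85 and -0.53 with 1 array left out. Alternatives that leave both group means as they are, such as leaving out a DIO+OF array or another prior, could not change these medians. The single probe set called for diet became 5 with all 17 arrays in 1 fit and 2 with equal probe sets counted once, and it became 0 without the dimmest 40% of probe sets, with 1-symbol probe sets only (fewer tested) or with a replicate block. With 1 array left out it was 0 to 2. At the methods' threshold the 1480 probe sets became 600 with 1-symbol probe sets only, where fewer are tested, and 1481 to 2142 with 1 array left out. The 81 probe sets for the difference between the lines became 2 under quantile normalization of all arrays (74 within each batch), 127 with array weights and 8 with a replicate block. With 1 array left out they were 29 to 151. The highest count was without the HBx,src,p53-/+ array that lacked vitellogenin, an alternative chosen after seeing the data. All 10 genes named for that difference missed the threshold under quantile normalization of all arrays and with the block. The causes were not tested. Deviations of same-numbered NOR and DIO arrays from their group means correlated at 0.0208, 0.0978 and -0.0634 over all probe sets. Arrays of different numbers were not set beside them, so these values cannot decide whether the replicate numbers pair the arrays. Leaving out a DIO+OF array or changing the prior could not change the sign of a gene either. Nor could leaving out 1 array where the diets did not overlap. Of the 2100 values of single genes under alternatives, these included, 8 changed sign. These were alms1 at 0.0687 under quantile normalization and, with 1 array left out, alms1 (-0.15 to 0.16), dnal4b (-0.34 to 0.12), ddx19a (-0.22 to 0.0098) and mycn (-0.0116 to 0.44). Of the 880 values of the other list medians, 36 moved by more than the spread between arrays. A change of sign within that spread was not counted, such as that of the cholesterol list (-0.43 to 0.43 with 1 array left out). Precision is limited by how many arrays there were.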
